A study of Mus musculus with 12 samples.

Results

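The genes described here are 9 genes that mark B cells or encode antibody chains: *Ighm*, *Igkc*, *Iglc1*, *Iglc2*, *Jchain*, *Cd79a*, *Cd79b*, *Ms4a1* and *Pou2af1*. They were chosen by name as B cell and immunoglobulin genes, and each matched 1 Ensembl identifier among the 49315 genes of the deposited count table. The table holds bulk RNA-sequencing of the brains of 12 male mice at 14 d post-stroke. The comparison asks whether transcripts of B lineage cells differed between brains of mice carrying *Tet2*-deficient and *Tet2*-sufficient blood cells.

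Both groups were CD45.1 Pep Boy mice that received head-shielded irradiation at 8 to 12 weeks of age and unfractionated bone marrow (BM). The 6 mice transplanted with *Tet2*-KO BM cells (*Tet2*-KO mice) received 10% CD45.2 Tet2-/- cells with 90% CD45.1 Tet2+/+ cells, and the 6 mice transplanted with WT BM cells (WT mice) received 10% CD45.2 Tet2+/+ cells in the same mixture. The donors were up to 14 weeks old. All mice had a transient occlusion of the middle cerebral artery for 30 min, at 8 to 10 weeks after the transplant. In this model the recipient's own brain cells, the CD45.1 marrow and blood cells that survived irradiation keep *Tet2*, and *Tet2* is missing from every cell type that the CD45.2 donor stem cells produce, B cells included. The genotype entry and title of the *Tet2*-KO samples name the knockout, while their treatment entry names control stem cells, and the groups used here follow the genotype and title.

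An antibody is built from heavy chains and light chains. *Ighm* encodes the constant part of the mu heavy chain of IgM, *Igkc* that of the kappa light chain, and *Iglc1* and *Iglc2* those of the lambda light chains. The joining chain encoded by *Jchain* links antibodies into polymers and is made by plasma cells. At the B cell surface, membrane antibody signals through CD79a and CD79b. *Ms4a1* encodes CD20, a surface protein of mature B cells, and *Pou2af1* encodes a transcriptional co-activator (OCA-B) that works with octamer-binding factors in B cells. In the uninjured brain B cells are few and lie mostly in the meninges and the border tissues, and lymphocytes can enter after a stroke.

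The genes lie on 8 chromosomes of the mouse build GRCm38 (mm10). *Ighm* lies at chr12:113418558-113422730 on the minus strand and *Igkc* at chr6:70726435-70726966 on the plus strand. *Iglc1* (chr16:19061618-19062071) and *Iglc2* (chr16:19198396-19200351) lie in the lambda locus on the minus strand. *Jchain* is at chr5:88519809-88527891 (minus), *Cd79a* at chr7:24897381-24902197 (plus) and *Cd79b* at chr11:106311341-106314762 (minus). *Ms4a1* is at chr19:11249675-11266241 (minus) and *Pou2af1* at chr9:51213708-51240080 (plus). The counts are of reads over exons, and no exon of a member overlapped an exon of another gene in GENCODE M21 except for 38 bases shared by *Iglc2* and the joining segment *Iglj2*, which had 0 counts.

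The lambda constant genes are near-identical in part, which bears on how their reads could be counted. The first 100 aligned coding bases from GENCODE M21 are shown for *Iglc1* (chr16:19061972-19062071), *Iglc2* (chr16:19198753-19198852) and *Iglc3* (chr16:19065582-19065681), on the minus strand, with capitals where a base differs from *Iglc2*:
Iglc2: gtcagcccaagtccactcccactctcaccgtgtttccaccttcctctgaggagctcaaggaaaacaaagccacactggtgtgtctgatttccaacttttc
Iglc3: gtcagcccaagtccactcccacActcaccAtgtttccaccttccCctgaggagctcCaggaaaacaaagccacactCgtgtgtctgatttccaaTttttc
Iglc1: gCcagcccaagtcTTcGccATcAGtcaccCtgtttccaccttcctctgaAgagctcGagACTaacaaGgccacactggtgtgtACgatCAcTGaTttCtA
Over the whole coding segment *Iglc2* and *Iglc3* differed at 11 of 314 aligned bases (96.5% identity), with identical runs of up to 79 bases. *Iglc1* was 74.8% identical to *Iglc2*, with no identical run longer than 19 bases, and 86.5% identical to *Iglc4*, with runs of up to 31 bases. Since the authors counted uniquely mapped reads, the split between *Iglc2* and *Iglc3* is uncertain.

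Total counts per library were 12000261 to 15340787 in the WT mice and 12625047 to 21049763 in the *Tet2*-KO mice. Values are given as raw counts and as CPM, the counts of a gene relative to the size of its library after TMM scaling. Most members were near the limit of what this depth can count. After the filter on low counts 20290 genes were tested, among them *Ighm*, *Igkc*, *Jchain*, *Cd79b* and *Pou2af1*. The other 4 members had too few counts for the filter and were compared by an exact permutation test of each gene alone.

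Of the 9 members, 8 had a mean CPM that was lower in the *Tet2*-KO mice by 1.47-fold or more, and *Ighm* by 1.15-fold. Of the 5 tested members 4 were lower at an unadjusted p below 0.05 in edgeR's quasi-likelihood test, against 12.2% of the genes tested. None passed the threshold after Benjamini-Hochberg adjustment (adjusted p below 0.05), which 5 genes in all did, each of them lower (0.0246%). The DESeq2 Wald test, the test the study used, called *Igkc* lower and no other member, where 4.81% of the genes with an adjusted p were called lower. It gave *Jchain* and *Cd79b* no adjusted p because of their low counts. The median log2 fold change of the 5 tested members was -1.28, beside 0.01 over the genes tested. The filter can be met through the WT mice alone, which was so for *Igkc* and *Pou2af1*, so the count and the median are descriptions only. With 10 counts required in every library *Ighm* was the only member tested, at a log2 fold change of -0.20. In bulk tissue, fewer cells of a type and less RNA per cell cannot be told apart.

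**Figure D1:**
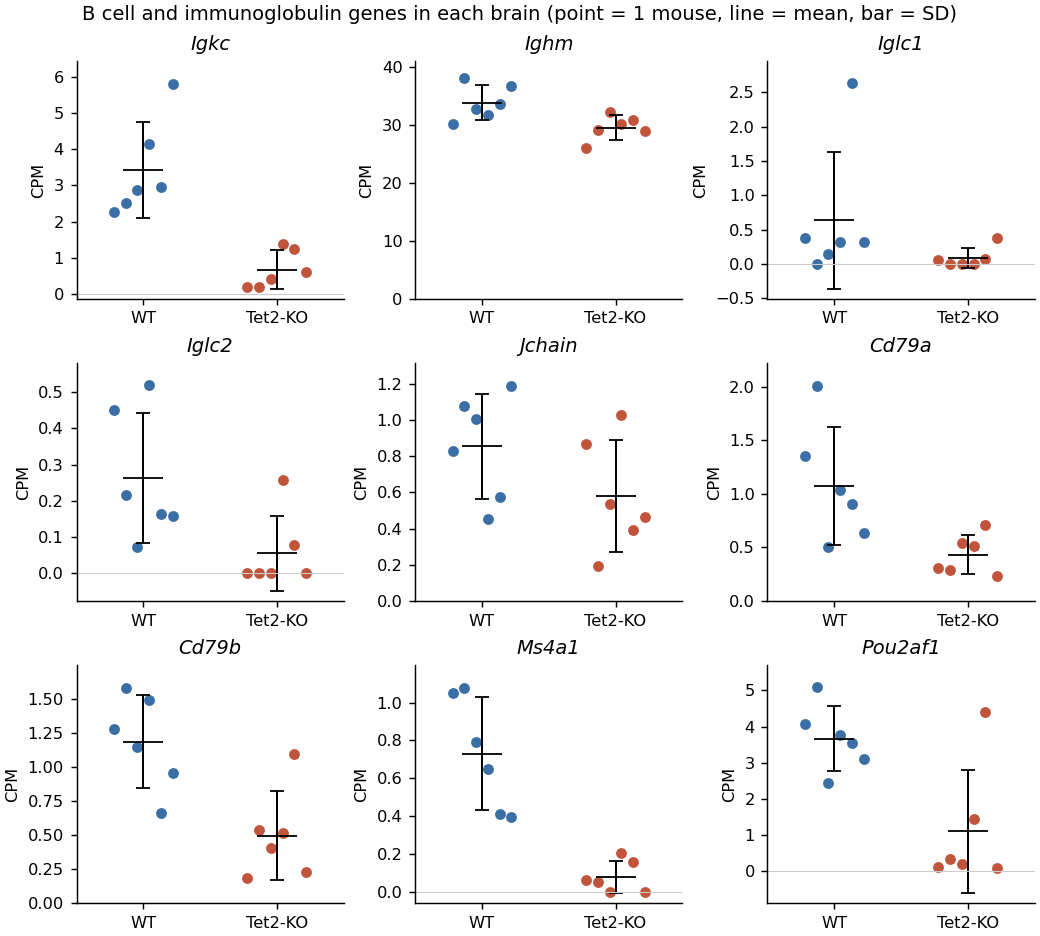
CPM (vertical axis, linear, on a separate scale for each gene) of the 9 genes in each mouse, with 6 points per group, a line at the mean and a bar of 1 SD. *Igkc* and *Ms4a1* show no overlap between the groups, the *Ighm* groups lie close together, and 1 *Tet2*-KO mouse lies within the WT range for *Pou2af1*.

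Among the light chains, *Igkc* had 30, 38 and 73 counts as the lowest, median and highest of the WT mice, and 3, 7 and 27 in the *Tet2*-KO mice. The highest *Tet2*-KO mouse stayed under the lowest WT mouse, in counts and in CPM, and *Tet2*-KO mice 4 and 5 were the highest of their group. Non-overlap in this direction was found for 0.641% of the genes tested. The mean was 3.42 ± 1.33 CPM in the WT mice and 0.674 ± 0.528 CPM in the *Tet2*-KO mice (SD, n = 6 each), a log2 fold change of -2.35 with a standard error of 0.42. The adjusted p was 0.0816 in edgeR and 0.001 in DESeq2.

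*Iglc1*, the constant region of the lambda 1 chain, had 0 to 5 counts in 5 WT mice and 32 counts in WT mouse 5. In the *Tet2*-KO mice it had 0 to 5 counts, with a median of 0.5. The groups overlapped, and the difference of the mean log2(CPM + 0.1) was -1.44 (exact two-sided permutation test, p = 0.0758). *Iglc2* had 1, 2.5 and 8 counts in the WT mice, lowest, median and highest, and 0, 0 and 5 in the *Tet2*-KO mice, where 4 of 6 mice had 0. Its groups also overlapped, with a difference of -1.27 on the same scale (exact two-sided permutation test, p = 0.0195).

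The share of kappa among the light chain constant counts (*Igkc* over *Igkc* and *Iglc1* to *Iglc4*) did not separate the groups. It was 48.6% to 90.9% in the WT mice, on 43 to 86 light chain counts, and 61.5% to 100% in the *Tet2*-KO mice, on 4 to 38 counts. The means were 73.4 ± 15.0% and 76.7 ± 12.9% (SD, n = 6 each; exact two-sided permutation test, p = 0.69). The lowest share, 48.6% in WT mouse 5, had a 95% exact binomial interval of 36.9% to 60.6%. With 4 counts in *Tet2*-KO mouse 1 the interval ran from 19.4% to 99.4%, and with 38 counts in *Tet2*-KO mouse 4 from 54.1% to 84.6%, so the mice differed widely in how large a shift in this share they could show. These intervals cover counting error alone.

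*Ighm* was by far the most counted member and the one that differed least. It had 402, 460.5 and 532 counts as the lowest, median and highest of the WT mice, and 378, 449.5 and 600 in the *Tet2*-KO mice. In CPM the means were 33.9 ± 3.04 and 29.6 ± 2.10 (SD, n = 6 each), 4 of 6 *Tet2*-KO mice were under the WT range, and the ranges overlapped. The log2 fold change was -0.20 with a standard error of 0.07 (edgeR, adjusted p = 0.135).

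Per 100 *Ighm* counts, a ratio that does not depend on the scaling of libraries, there were 6.58 to 15.7 *Igkc* counts in the WT mice and 0.667 to 4.6 in the *Tet2*-KO mice. The groups did not overlap in this ratio, and the spread within each group was wide. The ratio uses the same *Igkc* counts, which already did not overlap, over *Ighm* counts that differed little, so it is not separate evidence. In CPM per kilobase of exon, a level comparable between genes, *Ighm* stood at 18.0 ± 1.61 and *Igkc* at 6.44 ± 2.5 in the WT mice. In the *Tet2*-KO mice the levels were 15.7 ± 1.12 and 1.27 ± 0.992 (SD, n = 6).

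**Figure D2:**
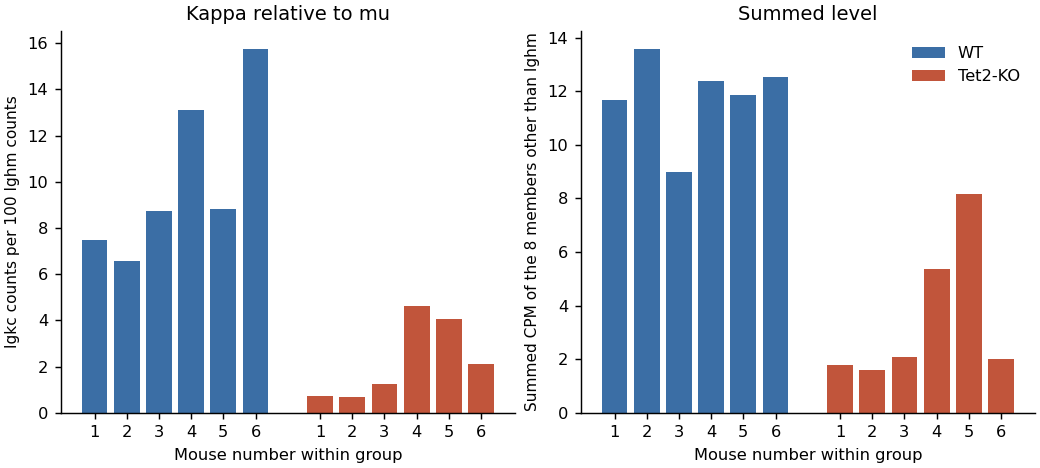
Left, *Igkc* counts per 100 *Ighm* counts in each mouse, and right, the summed CPM of the 8 members other than *Ighm* (bars start at 0, 1 bar per mouse). The WT bars lie at 6.58 to 15.7 on the left, and *Tet2*-KO mice 4 and 5, with 4.6 and 4.06, are the highest of their group.

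The other heavy chain constant genes did not move together. *Ighd*, which encodes the delta chain of IgD that naive B cells carry beside IgM, had 20, 28.5 and 41 counts in the WT mice and 4, 17 and 24 in the *Tet2*-KO mice, with overlap. Its log2 fold change was -1.16 with a standard error of 0.31 (edgeR, adjusted p = 0.112), and DESeq2 called it lower (adjusted p = 0.00972). *Ighg2c*, an IgG subclass of C57BL/6 mice, went the other way, with 11, 20 and 21 counts in the WT mice and 18, 32 and 46 in the *Tet2*-KO mice. Its log2 fold change was 0.61 with a standard error of 0.24 (edgeR, adjusted p = 0.161), where 10.8% of the genes tested were higher at an unadjusted p below 0.05.

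The remaining constant genes were too low for the test. *Igha*, the chain of IgA, had 2 to 22 counts in the WT mice and 0 to 10 in the *Tet2*-KO mice. *Ighg2b* had 21 counts in the WT mice together and 5 in the *Tet2*-KO mice, *Ighg1* had 7 and 5, and *Ighg3* had 7 and 8. *Iglc3* had 32 and 11 counts, *Iglc4* had 1 count in 1 WT mouse, and *Ighe* had 0 counts in each library, which allows up to 3 counts per library by counting error. The IgM share of all heavy chain constant counts was 88.2 ± 1.25% in the WT mice and 90.1 ± 2.22% in the *Tet2*-KO mice (SD, n = 6 each; exact two-sided permutation test, p = 0.0736). Its direction depended on what it was set against, because IgD took a smaller share in the *Tet2*-KO mice (0.899% to 5.43%, against 3.81% to 7.97%) and the IgG genes a larger one (4.30% to 8.12%, against 2.94% to 5.45%). Of the 139 IgG counts in the WT mice together *Ighg2c* had 104, and of the 209 in the *Tet2*-KO mice it had 191. Against the IgG genes alone the IgM share was lower in the *Tet2*-KO mice by 1.83 percentage points (exact two-sided permutation test, p = 0.0455). That difference therefore rests mainly on *Ighg2c* and does not describe each IgG gene.

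*Jchain* did not pass the edgeR test, before or after adjustment. It had 7, 12.5 and 15 counts as the lowest, median and highest of the WT mice, and 4, 7 and 20 in the *Tet2*-KO mice, whose mouse 4 had the most of all. The log2 fold change was -0.53 with a standard error of 0.36 (edgeR, adjusted p = 0.394). Single mice moved it: it was -0.81 without *Tet2*-KO mouse 4, which passed at an unadjusted p below 0.05, and -0.31 without *Tet2*-KO mouse 2.

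The signal chains were lower in the *Tet2*-KO mice at low counts. *Cd79b* had 8, 16.5 and 23 counts in the WT mice and 3, 8 and 14 in the *Tet2*-KO mice. In CPM 5 of 6 *Tet2*-KO mice were under the WT range, and mouse 5 was within the WT range. The means were 1.18 ± 0.343 and 0.495 ± 0.329 CPM (SD, n = 6 each), a log2 fold change of -1.28 with a standard error of 0.34 (edgeR, adjusted p = 0.112).

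*Cd79a* had 7, 13.5 and 28 counts in the WT mice and 3, 7 and 10 in the *Tet2*-KO mice, and 3 of 6 *Tet2*-KO mice were under the WT range in CPM. The difference of the mean log2(CPM + 0.1) was -1.09 (exact two-sided permutation test, p = 0.0152). *Ms4a1*, a marker of mature B cells that plasma cells lack, had 5, 10.5 and 15 counts in the WT mice and 0, 1 and 4 in the *Tet2*-KO mice. Its groups did not overlap, which held for 0.438% of the 37685 genes with a count, and the *Tet2*-KO mean was 10.8% of the WT mean. The difference was -2.26 on the same scale (exact two-sided permutation test, p = 0.00216, which 6 against 6 mice cannot go below).

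With the filter on low counts left out, all 9 members entered the edgeR test and 8 were lower at an unadjusted p below 0.05, where 8.29% of the genes tested were. That share also covers the genes too low for the filter. *Ms4a1* was then the one member called after adjustment, where 44 of all 37685 genes were called. It had a log2 fold change of -3.03, a standard error of 0.50 and an adjusted p of 0.011.

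*Pou2af1* had the largest standard error of the log2 fold change among the tested members. It had 34, 48.5 and 71 counts as the lowest, median and highest of the WT mice, and 1, 5 and 56 in the *Tet2*-KO mice. In 4 of the 6 *Tet2*-KO mice there were 1 to 7 counts, mouse 4 had 28, and mouse 5 had 56, within the WT range. The means were 3.67 ± 0.899 and 1.1 ± 1.69 CPM (SD, n = 6 each), a log2 fold change of -1.82 with a standard error of 0.67 (edgeR, adjusted p = 0.155). Without *Tet2*-KO mouse 5 it was -2.92 with an adjusted p of 0.00686, and *Igkc* (adjusted p = 0.00823) and *Cd79b* (adjusted p = 0.0106) passed the threshold as well. The number of genes called over the whole table went from 5 to 2257 with the same mouse left out.

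Promoter windows were given for 3 members, and those of *Pou2af1* and *Cd79a* are printed because *Pou2af1* is the transcriptional co-activator among the members and *Cd79a* is a signal chain of the receptor. The bases before the annotated starts are from RefSeq, build GRCm38.p6, on the plus strand. *Pou2af1* covers chr9:51213440-51213689 and *Cd79a* covers chr7:24897247-24897380:
Pou2af1: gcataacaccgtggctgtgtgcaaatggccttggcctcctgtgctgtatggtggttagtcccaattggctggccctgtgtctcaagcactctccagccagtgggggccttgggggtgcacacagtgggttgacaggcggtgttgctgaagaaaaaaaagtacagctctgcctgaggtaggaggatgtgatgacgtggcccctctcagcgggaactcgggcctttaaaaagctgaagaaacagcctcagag
Cd79a: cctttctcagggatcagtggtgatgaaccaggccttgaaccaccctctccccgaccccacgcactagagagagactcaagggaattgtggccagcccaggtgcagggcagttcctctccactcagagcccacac
Each window of 300 bases was searched on both strands for the octamer ATGCAAAT, an EBF-type element CCCNNGGG and an ETS-type core ACTTCC, which would be in capitals. The one match in the 3 windows was an ETS-type core on the opposite strand, 54 bases before the RefSeq start of *Cd79a* and outside the printed bases. Only exact matches were counted, so close variants of these elements were not sought and may be present. Of 32851 promoter windows, 1.74% hold the octamer, 13.7% the EBF-type element and 23.8% the ETS-type core.

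In levels per length, *Ighm* and *Igkc* led the order in both groups. In the WT mice *Pou2af1* (1.44 ± 0.353 CPM per kilobase), *Iglc1* (1.39 ± 2.19), *Cd79b* (0.828 ± 0.240), *Cd79a* (0.737 ± 0.376), *Iglc2* (0.430 ± 0.292) and *Jchain* (0.340 ± 0.116) followed. Between neighbours among these genes the ranges of mean ± SD overlapped. *Ms4a1* was lowest at 0.118 ± 0.0483. In the *Tet2*-KO mice *Igkc* and the 7 genes below it each overlapped their neighbour within 1 SD.

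**Figure D3:**
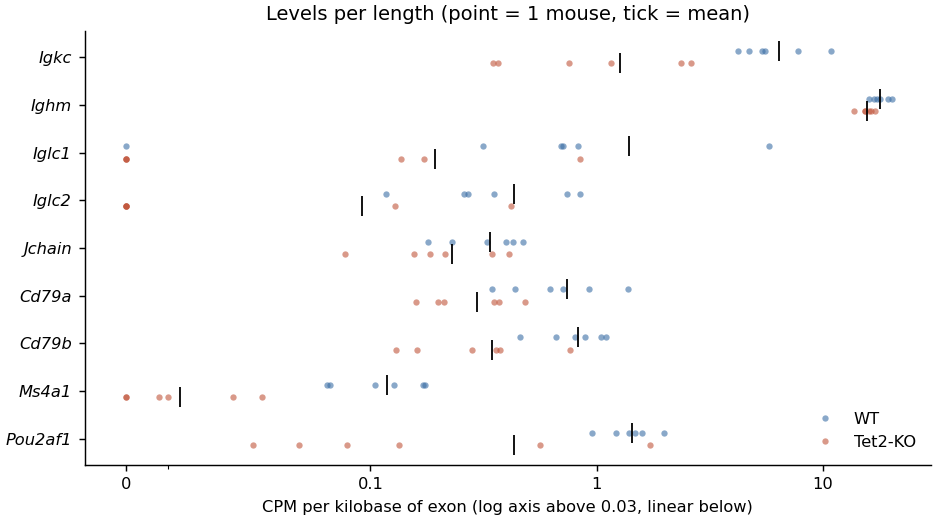
CPM per kilobase of exon (horizontal axis, log above 0.03 and linear below) for the 9 genes, with 1 point per mouse and a tick at the group mean. *Ighm* lies at the right with both groups close together (means 18.0 and 15.7), and *Igkc* is second in both.

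Variable segments, the parts of antibody genes that differ between B cell clones, were also counted. The table holds 348 of them (185 heavy, 160 kappa and 3 lambda), and none had enough counts to be tested. Together they had 27, 47 and 63 counts as the lowest, median and highest of the WT mice, and 6, 12 and 31 in the *Tet2*-KO mice. *Tet2*-KO mouse 4, from the second largest library, was the one *Tet2*-KO mouse above the lowest WT mouse in counts, and in CPM the groups did not overlap (2.03 to 5.00 against 0.404 to 1.59).

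The number of segments with a count was 20 to 32 in the WT mice and 3 to 21 in the *Tet2*-KO mice. Over the group, 94 segments had a count in some WT mouse and 45 in some *Tet2*-KO mouse. A number of segments seen depends on how many reads were counted, and these were not separated here.

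The most counted segments rested largely on single WT mice. *Igkv12-89* had 17 counts in all, 16 of them in WT mouse 6, and *Ighv1-5* had 9, all in WT mouse 3. In WT mouse 5, *Iglv1* had 13 of its 22 counts and *Ighv14-4* 8 of its 9, in the same brain that had the 32 *Iglc1* counts. *Igkv6-20* (13 counts in 6 mice) and *Iglv3* (14 in 6 mice) were spread over mice of both groups. *Igkv10-96* had 10 counts, 5 of them over 4 WT mice and 5 in *Tet2*-KO mouse 6. *Ighv9-3* had 5 counts and *Iglv2* 3, in WT mice.

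**Figure D4:**
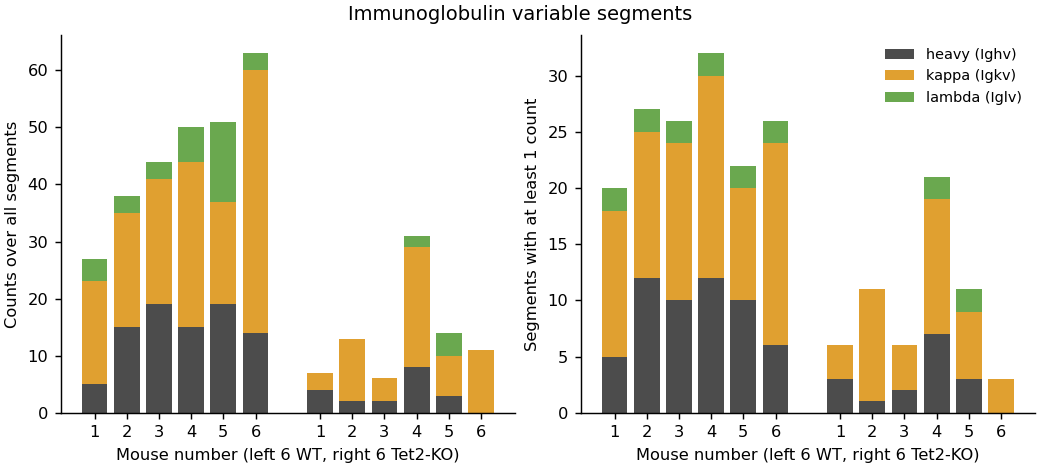
Counts over the immunoglobulin variable segments (left) and the number of segments with at least 1 count (right) in each mouse, stacked by locus, with the 6 WT mice at the left of each panel and the 6 *Tet2*-KO mice at the right. The WT mice lie at 27 to 63 counts and the *Tet2*-KO mice at 6 to 31.

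Other genes of the lineage were taken from lists. None of their tested genes passed the adjusted threshold in edgeR. Of 13 tested genes of B cell identity and surface, 7 were lower at an unadjusted p below 0.05 and none higher, with a median log2 fold change of -0.67. *Pax5*, the transcription factor that maintains B cell identity, was at 4.71 ± 1.28 CPM in the WT mice and 2.89 ± 0.823 CPM in the *Tet2*-KO mice (SD, n = 6 each; log2 fold change -0.70, standard error 0.22, edgeR adjusted p = 0.124). *Bank1*, a B cell scaffold protein, was lower, at a log2 fold change of -0.61 (adjusted p = 0.135). *H2-DMb2*, which loads peptides on MHC class II, had -1.12, *Cd74*, the invariant chain, -1.61, and *Cd180*, a Toll-like receptor homologue, -0.72, and the last did not pass at an unadjusted p of 0.05. *Cd74* and *Cd180* are also made by macrophages and microglia.

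At an unadjusted p below 0.05, 11 of 16 tested genes of B cell receptor signalling were lower and 1 was higher, with a median of -0.81. Myeloid cells use many of these genes too. The kinase *Syk* (log2 fold change -1.13), the phosphatase *Ptpn6* (-0.88), the adaptor *Dapp1* (-0.41) and the inhibitory receptor *Fcgr2b* (-1.19) were among the lower ones. *Prkcb*, a protein kinase C that neurons express strongly, was the higher one (0.22, edgeR adjusted p = 0.171).

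Of 9 tested plasma cell genes 5 were lower and none higher, with a median of -0.25. *Sdc1*, which encodes CD138, was at 4.04 ± 1.70 CPM in the WT mice and 2.01 ± 0.487 CPM in the *Tet2*-KO mice (SD, n = 6 each; log2 fold change -1.02, edgeR adjusted p = 0.11), and its groups did not overlap. Non-overlap in this direction was found for 0.641% of the genes tested, and among the other lists for *Il7r*, *Lck*, *S100a8* and *S100a9*. *Slamf7* had -1.81, *Prdm1*, the regulator of plasma cell differentiation, -0.71, *Xbp1*, the secretory pathway regulator, -0.15, and *Txndc5*, an endoplasmic reticulum protein, -0.24. The plasma cell genes *Mzb1* (0 to 3 and 0 to 6 counts) and *Tnfrsf17* (0 to 6 in both groups) were near 0 in WT and *Tet2*-KO mice. In raw counts, not scaled to library size, *Mzb1* had 10 over the WT mice and 17 over the *Tet2*-KO mice. *Tnfrsf17* had 13 and 16, and *Fkbp11*, also untested, had 75 and 48.

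Of 5 tested ligands that attract or sustain B cells 3 were lower and none higher. *Cxcl13*, the chemokine that draws B cells into follicles, was at 9.80 ± 3.38 CPM and 1.92 ± 2.39 CPM (SD, n = 6 each; log2 fold change -2.41, standard error 0.64, edgeR adjusted p = 0.119). *Ltb*, lymphotoxin beta, had -1.41, *Cxcl12* -0.64, and *Tnfsf13b*, the survival factor BAFF, -0.20, which did not pass at an unadjusted p of 0.05. The 7 tested immunoglobulin receptor and transport genes were each lower at an unadjusted p below 0.05, with a median of -0.88. Among them were *Fcgr2b*, *Fcgr3* (-0.86), *Fcer1g* (-0.88), *Fcgrt* (-0.45) and *Trim21* (-0.47), most of which microglia and macrophages carry.

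Of 3 tested genes of the early B cell precursor list 2 were lower, *Il7r* (log2 fold change -1.77, standard error 0.30, edgeR adjusted p = 0.0752, DESeq2 adjusted p = 3.96e-06) and *Cd93* (-0.90), while *Erg* was at 0.01. *Il7r* is the interleukin 7 receptor that T cells carry as well, and *Cd93* is also an endothelial and myeloid gene. The surrogate light chain genes that define precursors were at or near 0, with 0 counts of *Vpreb2*, 5 of *Igll1* in WT mice and 0 in *Tet2*-KO mice, and 0 to 6 of *Vpreb1* per library. Over the group, in raw counts not scaled to library size, *Vpreb1* had 13 in the WT mice and 4 in the *Tet2*-KO mice. The remaining untested genes of the list differed less, with 16 and 20 counts of *Rag1*, 13 and 18 of *Rag2*, and 46 and 43 of *Dntt*.

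The DESeq2 Wald test, which called 4.81% of genes lower, placed more of these genes past the adjusted threshold, all of them lower. They were *Pax5* (adjusted p = 0.0307) and *H2-DMb2* (0.0165) of the identity list, *Syk* (0.0449) and *Dapp1* (0.0322) of the signalling list, and *Sdc1* (0.00684) and *Prdm1* (0.0495) of the plasma cell list. Of the ligands it called *Cxcl13* (adjusted p = 0.0326), *Ltb* (0.00631) and *Cxcl12* (0.0329), and of the precursor list *Il7r* and *Cd93* (0.0256). It called none of the 7 immunoglobulin receptor and transport genes, and 5 of the 10 tested T cell markers, *Lck* (0.00458) among them. Of the other tested markers it called 3 of 4 neutrophil, 2 of 10 monocyte and macrophage and 3 of 8 meningeal fibroblast genes lower. It also called 1 of 7 choroid plexus markers lower. In the other direction, 3 of 8 neuron markers and 1 of 5 plasmacytoid dendritic cell markers were called higher.

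**Figure D5:**
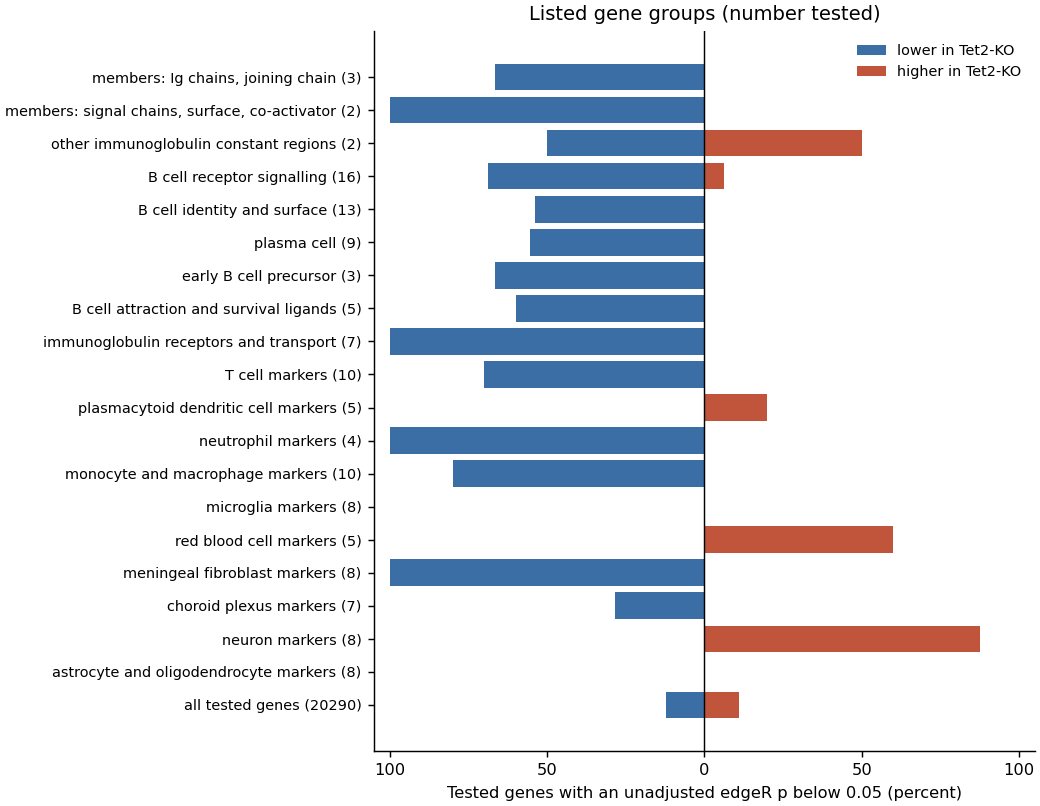
Share of the tested genes of each list with an unadjusted edgeR p below 0.05, lower in *Tet2*-KO to the left and higher to the right (percent), with the number tested in brackets. All tested genes, at the bottom, have 12.2% lower and 10.8% higher, and most B lineage, other leukocyte and fibroblast lists extend further to the left.

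Other cell types moved in the same comparison, and their part in the results above was not tested. The summed level of 15 T cell markers was 25.3 to 36.5 CPM in the WT mice and 15.2 to 23.7 CPM in the *Tet2*-KO mice, with 7 of 10 tested genes lower, *Lck* (log2 fold change -0.82) and *Trac* (-0.84) among them. *Cd5* had a log2 fold change of -0.93, *Cd4* of -0.39 and *Trbc2* of 0.00. The 9 neutrophil markers summed to 7.22 to 21.1 and 1.77 to 6.2 CPM, with 4 of 4 tested genes lower, and *S100a8* and *S100a9* were 2 of the 5 genes that passed the adjusted threshold. *Ly6g*, a defining neutrophil marker, had 2 counts over the 6 WT mice and 0 over the 6 *Tet2*-KO mice. The other untested neutrophil markers differed less than the tested ones in raw counts, not scaled to library size. *Retnlg* had 46 over the WT mice and 47 over the *Tet2*-KO mice, *Ngp* 61 and 58, *Camp* 17 and 15, and *Ltf* 33 and 18.

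The 10 monocyte and macrophage markers summed to 1048 to 2720 and 70.8 to 1555 CPM, with 8 of 10 lower, and the 8 meningeal fibroblast markers to 619.9 to 1378 and 168 to 782.5 CPM, with 8 of 8 lower. *Tet2*-KO mice 5 and 4 had the highest sums of their group for both of these lists, as they did for the B cell identity list (284.5 and 197 CPM). *Cd74* and *Cd180*, which macrophages and microglia make as well, had the highest levels of that list (means of 114 and 62.8 CPM in the WT mice). None of 8 microglia markers passed an unadjusted p of 0.05 (median log2 fold change -0.21), and 2 of 7 choroid plexus markers were lower.

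Red blood cell genes did not go the way of the B lineage genes. The 7 red blood cell markers found in the table summed to 22 to 31.6 CPM in the WT mice and 27.9 to 42.3 CPM in the *Tet2*-KO mice, and 3 of 5 tested were higher at an unadjusted p below 0.05. They were the haemoglobin genes *Hbb-bs* (log2 fold change 0.54), *Hba-a2* (0.56) and *Hbb-bt* (0.66), whose copies share reads. Of 8 neuron markers 7 were higher (median 0.24), of 5 tested plasmacytoid dendritic cell markers *Pacsin1* was higher (0.26), a gene of neurons too, and of 8 astrocyte and oligodendrocyte markers none passed.

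The genes whose levels tracked *Igkc* and *Cd79a* across mice were listed as a description. Over 12 libraries that share the difference between groups, the log2 CPM of *Igkc* was most alike to that of *Psme2b* (Pearson r = 0.945), *Slfn4* (0.933), *Anxa1* (0.924), *Cxcl13* (0.913) and *Slfn1* (0.909). With each group's mean subtracted these values were 0.828, 0.809, 0.732, 0.743 and 0.727. *Cd79a* was most alike to *Traf5* (0.984), *Gas1* (0.975), *Six2* (0.970), *Ifngr2* (0.969) and *Igf2r* (0.965), and within groups 0.972, 0.953, 0.938, 0.941 and 0.932. Between *Igkc* and *Cd79a* themselves the within-group value was 0.148, and both rest on few counts per mouse.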

How the data were processed

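Whole brain RNA was depleted of ribosomal RNA and sequenced as paired reads. The authors trimmed reads (Trimmomatic 0.36), mapped them to mm10, as named in the submitters' processing notes, with STAR 2.5.2b, and used featureCounts (Subread 1.5.2) to count unique reads over exons. They deposited raw counts per gene, without normalization. The annotation and strand setting of the counting are not given in the sources used here. Symbols came from GENCODE M21 (48970 of 49315 identifiers matched).

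From these counts, R 4.3.3 with edgeR 4.0.16 was used to filter (filterByExpr), scale (TMM) and test the 12 libraries with the robust quasi-likelihood test, without covariates, with Benjamini-Hochberg adjustment over 20290 genes and a threshold of 0.05. Unadjusted values are given because 5 genes passed that threshold. DESeq2 1.42.0 and limma 3.58.1 (voom with quality weights), other scalings and filters, a replicate block and leaving out each mouse were alternatives. The scripts were tested on simulated data. Genes outside the filter were compared by exact permutation over the 924 assignments of mice, on log2(CPM + 0.1), with Python 3.11.15. Shares have 95% Clopper-Pearson intervals. Lambda segments were aligned with Biopython 1.88. Depth was 12000261 to 21049763 counts per library, so a gene at 10 counts has a wide sampling error.

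The members and gene lists were chosen with earlier results of these data known. Genes open to be named were the members, the other immunoglobulin constant genes, up to 4 tested genes of each further list with the smallest p and 2 with the highest level, the 3 most counted variable segments of each locus, and the 5 genes most alike to *Igkc* and to *Cd79a* other than immunoglobulin genes. Genes near 0 that define a cell type (*Mzb1*, *Tnfrsf17*, *Vpreb1*, *Vpreb2*, *Igll1*, *Ly6g*) were named after their values were seen. So were the further untested genes *Fkbp11*, *Rag1*, *Rag2*, *Dntt*, *Retnlg*, *Ngp*, *Camp* and *Ltf*. Each mouse is 1 library, and no sequencing batch is given in the labels. Some listed genes are not reported here.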

Additional observations from a re-analysis of the deposited data

Results flagged for a closer look

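Samples that stood apart from the other 5 of their group were sought in 38 groups of values (members, other constant genes, shares and variable segments). For normally distributed values, chance alone meets the test used in about 1 of 20 groups. Groups with few counts or many values of 0 are not of that kind, and their rate was not determined. The test marked 8 values, most of them at few counts. WT mouse 5 had 2.64 CPM of *Iglc1* (the other WT mice had 0 to 0.376) and 1.15 summed CPM of the lambda variable segments (the others 0.215 to 0.389). WT mouse 6 had 3.65 summed CPM of the kappa variable segments (the others 1.35 to 1.88). *Tet2*-KO mouse 5 had 4.39 CPM of *Pou2af1* (the others 0.0769 to 1.44) and 0.314 summed CPM of the lambda variable segments (the others 0 to 0.103). *Tet2*-KO mouse 6 had 0.385 CPM of *Iglc1* (the others 0 to 0.0785), *Tet2*-KO mouse 4 had 0.257 CPM of *Iglc2* (the others 0 to 0.0785), and *Tet2*-KO mouse 1 had an IgM share of 94.4% (the others 88.4% to 90.2%).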

How the results depend on the processing

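No tested member reversed its direction under any alternative, and the limits of these results are counts of few reads and a threshold that few genes reach. Of the tested members, 0 passed the adjusted threshold in the main test, 1 with DESeq2, 3 with limma-voom (*Igkc*, *Cd79b* and *Pou2af1*), 1 without the filter and 0 to 3 when 1 mouse was left out, the 3 without *Tet2*-KO mouse 5. Members lower at an unadjusted p below 0.05 numbered 4 in the main test and 5 with limma-voom, *Jchain* included. They numbered 8 without the filter, 1 (*Ighm*, the one member left) with 10 counts required in every library, and 4 to 5 without 1 mouse. The median log2 fold change of the tested members was -1.28, and -1.82 without the filter, -0.20 with 10 counts required (fewer members), and -1.60 to -1.12 without 1 mouse. Genes called over the whole table numbered 5 in edgeR, 1464 with DESeq2, 1863 with limma-voom, 44 without the filter, 0 with 10 counts required, and 0 to 2257 without 1 mouse, the cause of which was not tested. The replicate numbers did not pair the mice (correlation of same-numbered mice -0.06 to 0.32), and with a replicate block 0 members and 0 genes were called, with 4 members lower at an unadjusted p below 0.05. In the permutation tests, leaving out 1 mouse gave differences of -1.86 to -0.90 for *Iglc1* (p below 0.05 without WT mouse 2 or *Tet2*-KO mouse 6), -1.55 to -1.09 for *Iglc2*, -1.26 to -0.89 for *Cd79a* and -2.44 to -2.12 for *Ms4a1*. With a pseudocount of 0.5 CPM these differences shrank to -0.68, -0.44, -0.71 and -1.06. *Iglc1* stayed above a p of 0.05 (0.0758), and *Iglc2* (0.0303), *Cd79a* (0.0152) and *Ms4a1* (0.00216) stayed below it (exact two-sided permutation test). The kappa share difference of 3.28 percentage points ranged from -1.68 (without WT mouse 5) to 6.77, and was -1.38 without *Tet2*-KO mouse 3. The IgM share difference of 1.90 percentage points ranged from 1.03 to 2.23 (p below 0.05 without WT mouse 3 or *Tet2*-KO mouse 3), and was -1.83 against the IgG genes alone.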
